A study of Mus musculus with 6 samples.

Results

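Vesicle-associated membrane proteins (VAMPs, also called synaptobrevins or v-SNAREs) are small membrane proteins that sit on transport vesicles. A VAMP pairs with syntaxins and SNAP-25-type proteins on the target membrane, and the zippering of these SNARE helices drives membrane fusion. Neurons and neuroendocrine cells use Vamp2 for regulated release of transmitter and hormone, while other members serve recycling endosomes, the trans-Golgi network, lysosomes and the plasma membrane. The 7 mouse genes described here are Vamp1, Vamp2, Vamp3, Vamp4, Vamp5, Vamp7 and Vamp8, out of 18193 genes with a probe set of their own. They were taken as every probe set that the platform annotation assigns to one of them, each read on its own: 17 probe sets for a single VAMP gene, out of 45037 tested, and 1 probe set shared by Vamp1 and E130112N10Rik, which is listed but not counted.

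RNA came from CAD cells, a catecholaminergic mouse neuroblastoma line, transfected with the RIPmiR-124a-2 plasmid, which expresses miR-124a-2 (3 arrays), or with the RI vector, an empty control plasmid (3 arrays). MiR-124 is a microRNA enriched in brain, and the study's title asks how it promotes neuronal differentiation through splicing. All cells were grown in DMEM with serum and antibiotics. The labels call the replicates biological, and give neither the time after transfection nor the share of cells that took up plasmid. In such bulk RNA, a change in all cells and a larger change in some of them cannot be told apart. The array values say nothing of the miR-124a-2 level itself, which was not analysed here.

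Values are log2 signals per probe set. Correlations between arrays were 0.988 to 0.997. Negative control probe sets, whose bacterial transcript no sample should hold, read at most 3.70. Of 12 catecholaminergic and neuronal markers, Dbh, the enzyme that makes noradrenaline, averaged 10.52 with the plasmid and 10.16 with empty vector, and Th, the first enzyme of the pathway, averaged 6.77 and 6.32. Slc18a2, a vesicular monoamine transporter, was close to the negative controls, at 3.86 and 3.99. Arrays differed in 2 technical measures. The interquartile range was narrow (3.06 to 3.10) on plasmid replicates 1 and 2 and empty vector replicate 1, and wide (3.26 to 3.35) on the other 3. The poly-A control transcripts averaged 5.97 and 5.96 on plasmid and empty vector replicate 1, against 5.57 to 5.71 on the remaining 4 arrays. Differences within these sets of arrays are given where they bear on a VAMP value. In the narrow set they rest on 1 empty vector array, and in the wide set on 1 plasmid array. On the replicate 1 arrays, those with high poly-A controls, they rest on 1 array of each group.

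With miR-124a-2, Vamp3 was called lower, by 3.55- to 3.71-fold, in 4 of its 5 probe sets. Vamp2 was called higher, by 1.62-fold, in 1 of its 2, and the other averaged 1.78-fold higher without passing. The Vamp2 call was lost whenever a single array was left out, and those of Vamp3 in 4 such fits. No probe set of the other 5 genes passed the test. In limma, with Benjamini-Hochberg adjustment over all 45037 probe sets and a threshold of 0.05, 5 of the 17 VAMP probe sets passed. Of these, 4 were lower and belong to Vamp3, and 1 was higher and belongs to Vamp2. Over all probe sets 0.269% passed, 0.209% lower and 0.06% higher. The 5 calls belong to 2 genes, and probe sets assigned to 1 gene are not independent of each other. The median log2 fold change was -0.04 over the 17 VAMP probe sets and 0.00230 over all probe sets. Values of the 2 groups did not overlap for 10 of the 17 VAMP probe sets, 8 lower and 2 higher, against 13.2% of all probe sets (6.97% lower, 6.28% higher). An unadjusted p under 0.05 was reached by 8 of the 17, against 8.19% of all probe sets. Of the 17, 3 had a mean signal below the median of all probe sets. These shares were not matched for signal, and among the 22519 probe sets kept by a filter on dim ones 0.577% passed.

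**Figure D1:**
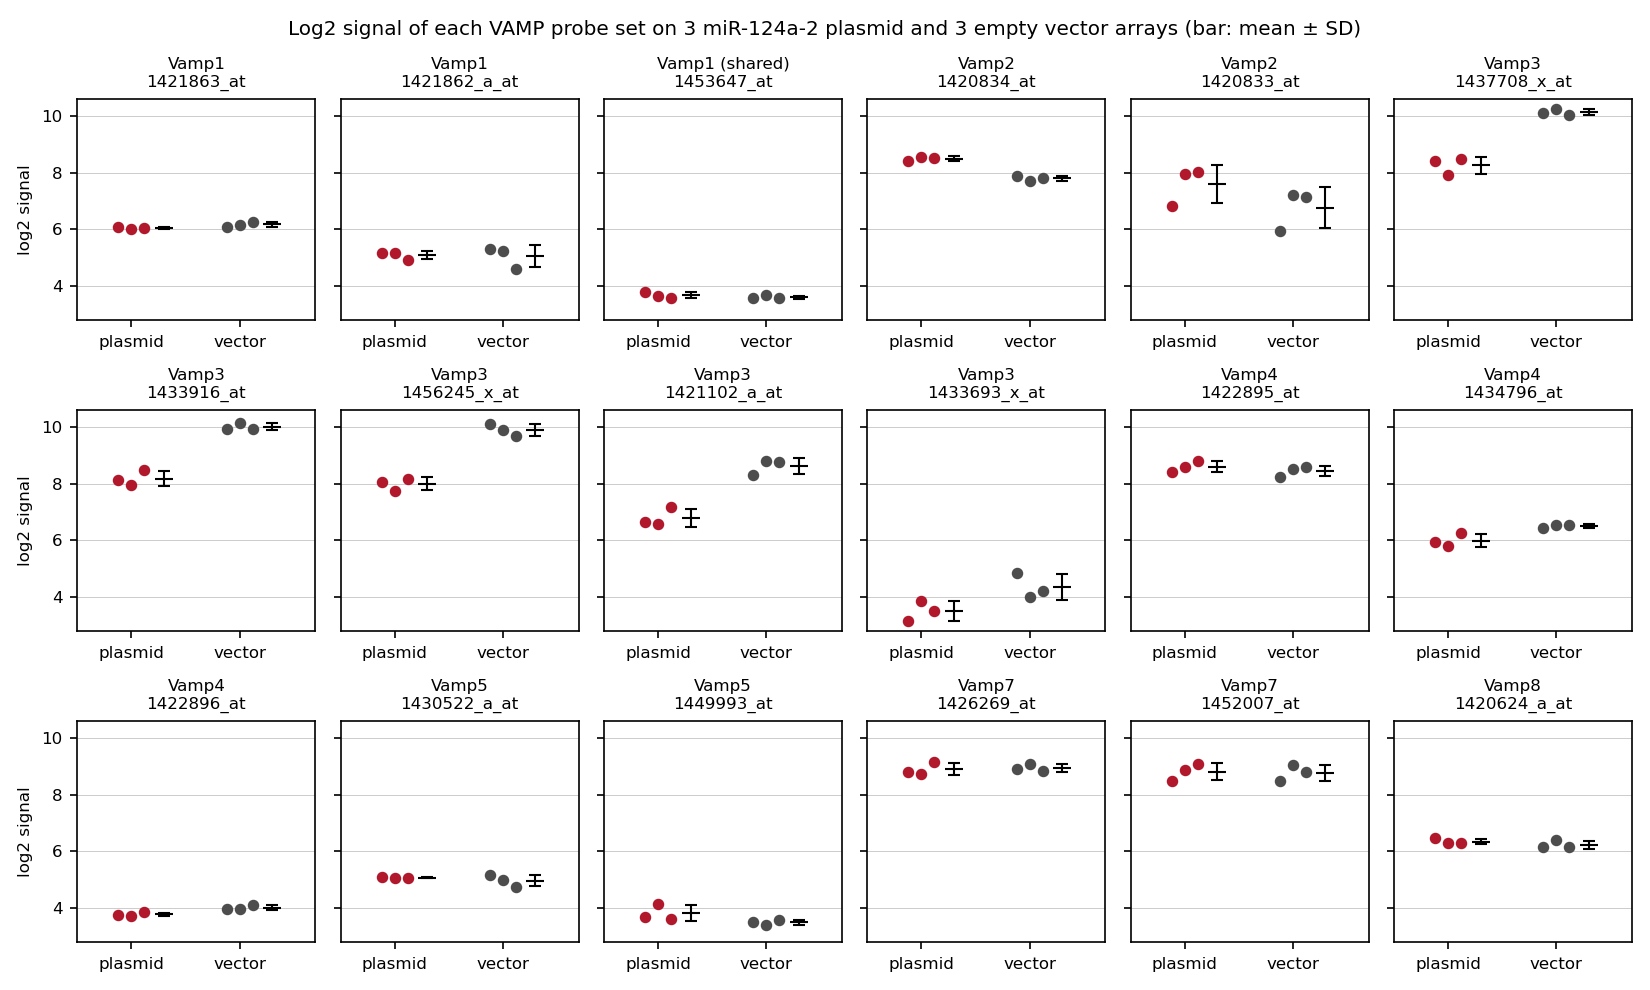
Log2 signal (vertical axis) of the 17 VAMP probe sets and the shared Vamp1 probe set on each array, with plasmid arrays in red to the left and empty vector arrays in grey to the right; bars give mean ± SD of 3 arrays. The 4 brighter Vamp3 probe sets lie lower on all 3 plasmid arrays, both Vamp2 probe sets average higher, and the group means of the Vamp1, Vamp4, Vamp5, Vamp7 and Vamp8 probe sets differ by 0.51 or less.

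Vamp3, also known as cellubrevin, is the widely expressed VAMP of recycling endosomes, where it returns receptors and integrins to the cell surface. It has been reported as a target of miR-124. Its highest-signal probe set, 1437708_x_at, read 8.39, 7.91 and 8.46 on the plasmid arrays, against 10.11, 10.24 and 10.05 on the empty vector arrays. Every plasmid value lay at least 1.58 log2 units below every empty vector value. Vamp3 averaged 8.26 ± 0.30 with the plasmid and 10.13 ± 0.10 with empty vector in this probe set (SD, n = 3 each). That is a log2 fold change of -1.88 (SE 0.15, 95% interval -2.23 to -1.52, limma adjusted p = 0.0112), or 3.68-fold lower.

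The other Vamp3 probe sets repeated this fall at different signal levels. Probe set 1433916_at read 8.12, 7.93 and 8.47 with the plasmid and 9.94, 10.14 and 9.92 with empty vector, a log2 fold change of -1.83 (SE 0.15, limma adjusted p = 0.0112). Probe set 1456245_x_at read 8.06, 7.73 and 8.17 with the plasmid and 10.09, 9.88 and 9.67 with empty vector, a log2 fold change of -1.89 (SE 0.15, limma adjusted p = 0.0112). The suffix x marks probe sets in which some probes also match other transcripts, and 2 of the Vamp3 probe sets lack it, 1433916_at and 1421102_a_at. The last of these read 6.65, 6.56 and 7.16 with the plasmid and 8.31, 8.80 and 8.77 with empty vector. Its log2 fold change was -1.83 (SE 0.19, limma adjusted p = 0.0193). Ordered by log2 fold change from the most negative, these 4 probe sets held ranks 2 to 5 of the 45037. Across the 4, fold changes ran from 3.55 to 3.71-fold lower.

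The fifth Vamp3 probe set, 1433693_x_at, lies near the negative controls. It read 3.14, 3.87 and 3.50 with the plasmid, against 4.86, 3.99 and 4.22 with empty vector. The groups did not overlap, but the highest plasmid value and the lowest empty vector value were 0.12 apart. Its log2 fold change of -0.85 (SE 0.25, limma adjusted p = 0.313) did not pass.

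The fall of Vamp3 was present in each set of arrays. In 1437708_x_at the difference was -1.96 in the narrow set and -1.68 in the wide set, and -1.72 within the arrays with high and -1.96 within those with low poly-A controls. In 1433916_at the same differences were -1.92, -1.56, -1.82 and -1.83. The size held when single arrays were left out, from -1.98 to -1.70 in 1437708_x_at, but the call did not always. Without plasmid replicate 1, or without any one of the 3 empty vector arrays, no Vamp3 probe set passed, and neither did any of the 45037 (adjusted p of 1437708_x_at up to 0.148 over the alternatives). Those 4 fits had 3456, 4247, 2311 and 2409 probe sets at an unadjusted p under 0.05. Without plasmid replicate 2, 1421102_a_at alone of the 4 did not pass.

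**Figure D2:**
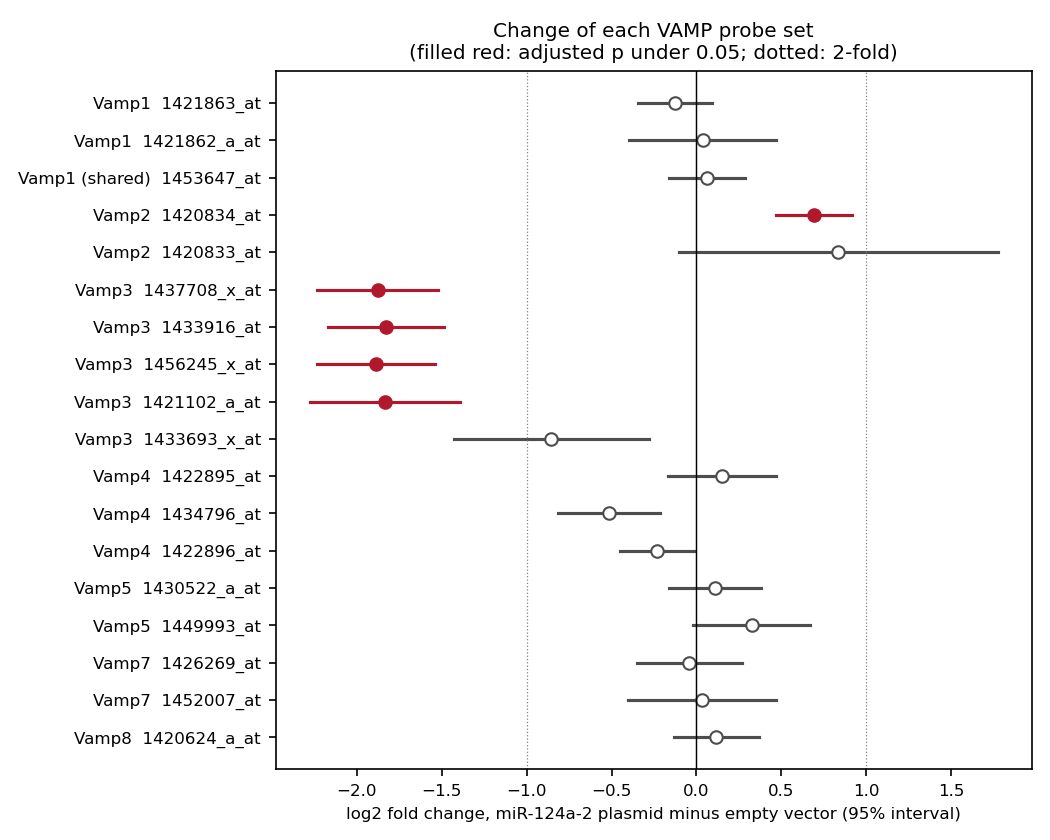
Log2 fold change of each VAMP probe set, plasmid minus empty vector, with its 95% interval from limma; filled red points passed at an adjusted p under 0.05 and dotted lines mark 2-fold changes. The 4 Vamp3 probe sets that passed lie between -1.89 and -1.83, and 1420834_at of Vamp2 lies at 0.69.

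Vamp2, or synaptobrevin-2, is the main VAMP of synaptic vesicles and of dense-core granules in neuroendocrine cells. Its transcript has been reported as held down in non-neuronal cells by the splicing repressor PTBP1. Whether this report, or that on Vamp3, drew on these samples was not checked. Probe set 1420834_at read 8.39, 8.56 and 8.51 on the plasmid arrays, against 7.87, 7.70 and 7.82 on the empty vector arrays. The lowest plasmid value lay above the highest empty vector value. It averaged 8.49 ± 0.09 with the plasmid and 7.80 ± 0.08 with empty vector (SD, n = 3 each), and rose by 0.69 on the log2 scale (SE 0.10, 95% interval 0.47 to 0.92, limma adjusted p = 0.0417), or 1.62-fold. The difference was 0.61 within the narrow, 0.75 within the wide, 0.52 within the high poly-A and 0.78 within the low poly-A arrays. The size stayed between 0.65 and 0.74 when any single array was left out, but in none of those 6 fits did the call hold (adjusted p up to 0.301), nor did it with median centring (adjusted p = 0.0634).

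The second Vamp2 probe set, 1420833_at, was designed on the same source sequence and read 6.82, 7.96 and 8.02 with the plasmid, against 5.94, 7.20 and 7.15 with empty vector. Here the groups overlapped, because the replicate 1 array of each group was lower than its other arrays, by 1.17 with the plasmid and 1.23 with empty vector. Those 2 arrays are also the ones with high poly-A controls. The log2 fold change was 0.84 (SE 0.41, 95% interval -0.10 to 1.78, limma adjusted p = 0.685) and did not pass. Within the high poly-A arrays the difference was 0.88 and within the low poly-A arrays 0.82. With the poly-A level as a block it passed (limma adjusted p = 0.0159, from 0.0140 to 0.989 over the alternatives), with the same log2 fold change of 0.84. Such a block cannot move the fold change, as each poly-A level holds as many plasmid as empty vector arrays. On the narrow arrays the difference was 1.45 and on the wide ones 0.85, and with the array set as a block it was 1.15 and did not pass (limma adjusted p = 0.117). When single arrays were left out it ran from 0.42, without empty vector replicate 1, to 1.23, without plasmid replicate 1. In the mean of both probe sets, adjusted over genes, Vamp2 had 0.76 and did not pass (limma adjusted p = 0.196).

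**Figure D3:**
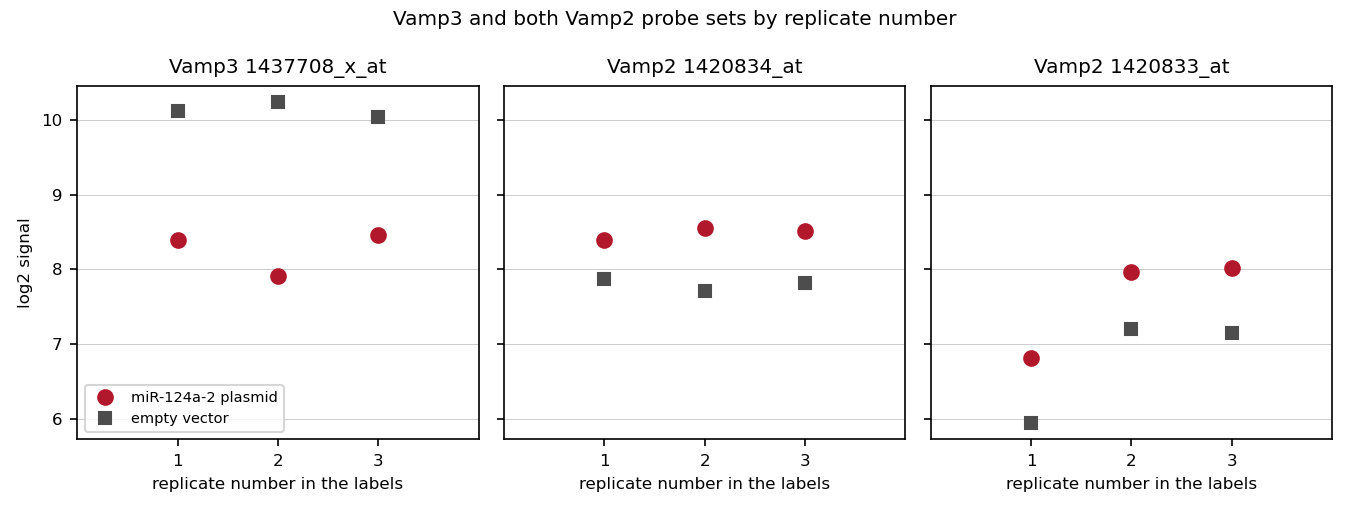
Log2 signal (vertical axis) of Vamp3 1437708_x_at and of both Vamp2 probe sets against the replicate number in the labels, which orders nothing; red circles are plasmid arrays and grey squares empty vector arrays. In Vamp2 1420833_at the replicate 1 arrays of both groups lie below the rest, at 6.82 and 5.94, whereas 1420834_at and Vamp3 show no such step.

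The called probe sets of Vamp3 and Vamp2 can also be set against each other on the same arrays. The within-array difference, Vamp3 1437708_x_at minus Vamp2 1420834_at, was set to average 0 over the empty vector arrays. It then read -2.33, -2.99 and -2.39 with the plasmid, against -0.09, 0.20 and -0.11 with empty vector. The shift was -2.57. It restates the separate changes of these probe sets on 1 scale. The exact two-sided permutation p was 0.1, the smallest that 3 against 3 arrays can give, or 0.167 adjusted over 5 pairs. Both probe sets were already called in opposite directions in the same arrays, so this p adds no support.

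Vamp4, a VAMP of the trans-Golgi network and of maturing secretory granules, had 3 probe sets, of which 1 averaged higher and 2 lower with the plasmid, and none passed. The brightest, 1422895_at, read 8.40, 8.59 and 8.79 with the plasmid, against 8.23, 8.52 and 8.57 with empty vector, and these ranges overlapped (log2 fold change 0.15, SE 0.14, limma adjusted p = 0.895). Probe set 1434796_at read 5.92, 5.79 and 6.25 with the plasmid, against 6.43, 6.52 and 6.55 with empty vector. All 3 plasmid values lay below the empty vector values, yet the log2 fold change of -0.51 (SE 0.13, limma adjusted p = 0.226) did not pass, and it was -0.57 in the narrow set and -0.29 in the wide set. The dim probe set 1422896_at read 3.73 to 3.84 with the plasmid and 3.95 to 4.10 with empty vector (log2 fold change -0.23, limma adjusted p = 0.571). Relative to 1422895_at on the same arrays, the shift with the plasmid was -0.66 for 1434796_at and -0.38 for 1422896_at. In both cases the groups did not overlap and the exact two-sided permutation p was 0.1, the smallest that 3 against 3 arrays can give, or 0.167 adjusted over the 5 pairs of VAMP probe sets compared. That test does not show that the Vamp4 probe sets differed, and the pairs were taken because their signs did. In the mean of its probe sets, Vamp4 had -0.20 (limma adjusted p = 0.618), opposite in sign to its brightest probe set.

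Vamp7, or TI-VAMP, carries an N-terminal longin domain and serves late endosomes, lysosomes and neurite outgrowth. Its probe set 1426269_at read 8.81, 8.73 and 9.14 with the plasmid and 8.91, 9.08 and 8.82 with empty vector. Probe set 1452007_at read 8.47, 8.87 and 9.07 with the plasmid, against 8.48, 9.04 and 8.79 with empty vector. The ranges overlapped in both, and the log2 fold changes were -0.04 (95% interval -0.35 to 0.27) and 0.03 (95% interval -0.40 to 0.47). Both values changed sign in some of the alternatives, and neither passed in any.

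Vamp1, or synaptobrevin-1, is the close relative of Vamp2 at neuromuscular and some central synapses. Its probe set 1421863_at read 6.07, 6.00 and 6.06 with the plasmid and 6.08, 6.15 and 6.27 with empty vector. The groups did not overlap, with a gap of 0.00359 between them (log2 fold change -0.12, SE 0.09, limma adjusted p = 0.860). Probe set 1421862_a_at read 5.18, 5.16 and 4.91 with the plasmid and 5.30, 5.23 and 4.60 with empty vector, with a log2 fold change of 0.04 (limma adjusted p = 0.990). The probe set shared with E130112N10Rik read 3.58 to 3.78 with the plasmid and 3.56 to 3.66 with empty vector, at the level of the negative controls. Within arrays, the exact two-sided permutation p for a difference between the probe sets was 0.8 for Vamp1 and 0.7 for Vamp7. These pairs were also taken because their signs differed, and such p-values do not show that the probe sets agree.

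Vamp5 and Vamp8 lie next to each other in the genome, with only Gm52494 between them in the RefSeq gene order of GRCm38.p6. Vamp5, or myobrevin, is known from muscle and from plasma membrane sites. Probe set 1430522_a_at read 5.10, 5.05 and 5.06 with the plasmid and 5.15, 4.98 and 4.75 with empty vector (log2 fold change 0.11, limma adjusted p = 0.913). The dim 1449993_at read 3.69, 4.14 and 3.61 with the plasmid, against 3.50, 3.38 and 3.58 with empty vector. Its groups did not overlap, with a gap of 0.024 between them, and its log2 fold change of 0.33 did not pass (SE 0.15, limma adjusted p = 0.644). Without plasmid replicate 2 it was 0.16. Vamp8, or endobrevin, acts in late endosomes, autophagosomes and secretory granules of exocrine cells. Its 1 probe set, 1420624_a_at, read 6.45, 6.29 and 6.29 with the plasmid, against 6.13, 6.38 and 6.16 with empty vector. The ranges overlapped (log2 fold change 0.12, SE 0.11, limma adjusted p = 0.895).

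For the 5 genes without a call, the intervals limit how much could have gone unseen. All 10 of their probe sets had 95% intervals, not adjusted for the number of tests, that excluded a 2-fold change in either direction. The widest reached a 1.76-fold decrease, in 1434796_at of Vamp4. Such an interval does not show that a gene was unchanged, and it says little for the dim 1422896_at and 1449993_at.

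The partners of the VAMPs were read with 1 probe set per gene, the brightest. Of 111 measured genes in 6 lists of SNAREs, their regulators and vesicle or endosome proteins, none passed in either direction in limma, against 0.423% of all genes. At an unadjusted p under 0.05 there were 25, of which 18 were higher and 7 lower (22.5%, against 10.6% of all genes). Groups did not overlap in 38 of the 111, against 16.3% of all genes. The median log2 fold change was 0.08 over the 111 genes and 0.02 over all genes. Mean signal lay below the highest negative control in 5 of the 111, against 2370 of all 18193 genes. The shares were not matched for signal.

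**Figure D4:**
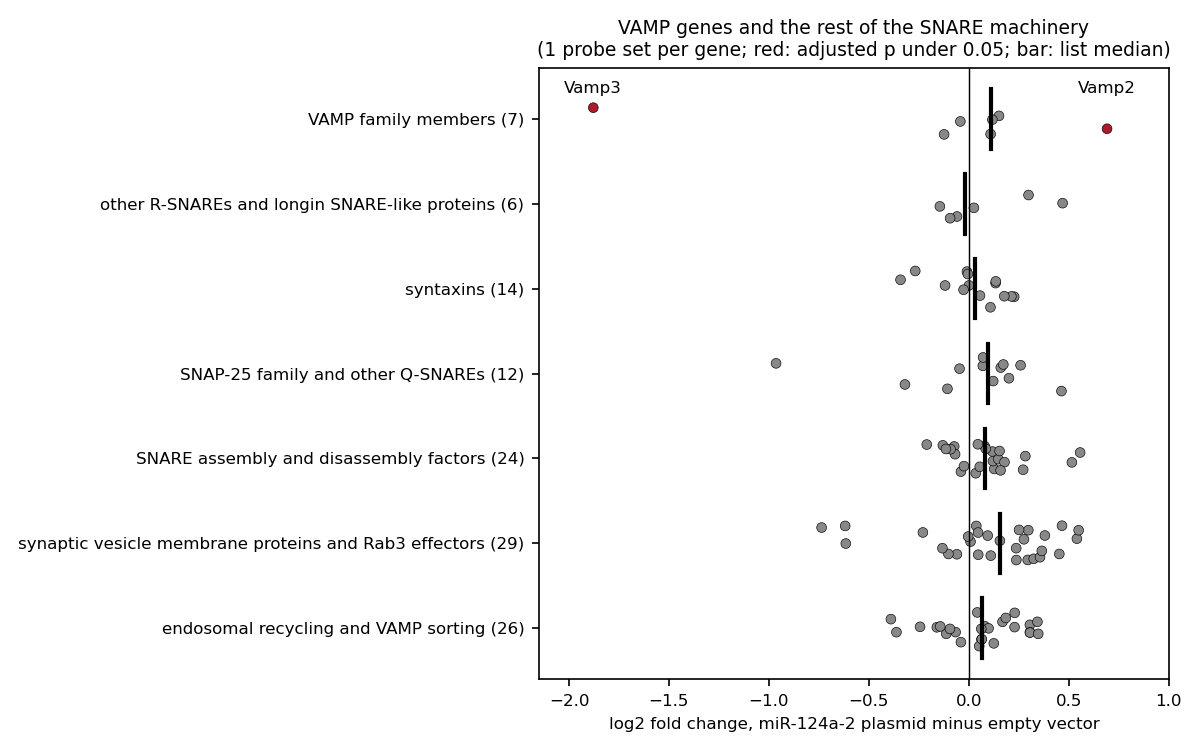
Log2 fold change (horizontal axis), plasmid minus empty vector, of the VAMP genes and of the 6 lists of SNARE machinery, 1 point per gene with its number of measured genes in brackets; red points passed at an adjusted p under 0.05 and black bars are list medians. Vamp3 at -1.88 and Vamp2 at 0.69 lie outside the range of the other genes, -0.96 to 0.56.

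Among 14 measured syntaxins, the target-membrane partners of VAMPs, none passed and the median log2 fold change was 0.03. Those with the largest values were Stx2, a plasma membrane syntaxin, at -0.34 (limma adjusted p = 0.557) and Stx11, a syntaxin of immune cells, at -0.27 (limma adjusted p = 0.680). Among 12 other Q-SNAREs, again none passed, and the median was 0.10. Snap23, the widely expressed partner of Vamp3 at the plasma membrane, read 5.98, 5.85 and 6.28 with the plasmid, against 6.48, 7.39 and 7.13 with empty vector. The groups did not overlap, all 3 Snap23 probe sets were below 0, and the log2 fold change was -0.96 (SE 0.23, limma adjusted p = 0.178). It was -0.57 in the narrow set and -0.98 in the wide set, and the call was made once the array set entered as a block (limma adjusted p = 0.0384, from 0.0384 to 0.654 over the alternatives). Snap25, its neuronal paralog and the partner of Vamp2 in transmitter release, read 10.06, 10.76 and 10.73 with the plasmid and 9.60, 10.32 and 10.24 with empty vector. Those groups overlapped (log2 fold change 0.46, SE 0.24, limma adjusted p = 0.718), with 1 of its 2 probe sets lower. As in Vamp2 1420833_at, the replicate 1 array of each group was the lowest. The Snap25 value was 0.24 without empty vector replicate 1 and 0.69 without plasmid replicate 1, and it passed in none of the alternatives.

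The other R-SNAREs and related longin or tomosyn proteins numbered 6, with a median of -0.02. Stxbp5, or tomosyn, which competes with VAMPs for syntaxin, had 0.47 (limma adjusted p = 0.357), and Sec22a had 0.30 (limma adjusted p = 0.340). Neither passed, and in both the groups did not overlap. With the array set as a block Stxbp5 passed, at 0.58 (limma adjusted p = 0.0384, and up to 0.890 in other alternatives). Of 24 factors that assemble or take apart SNARE complexes, none passed, and the median was 0.08. Napb, the brain form of the SNAP adaptor that recruits the disassembly ATPase NSF, had 0.56 (limma adjusted p = 0.112), with all 6 probe sets above 0. It passed in 3 of 16 alternatives, with the replicate number as a block, with the array set as a block and with quantile normalization; its limma adjusted p lay between 0.0369 and 0.474 in those 16. Vps33a, an assembly factor of late endosomes, had 0.52 (limma adjusted p = 0.103).

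Over all genes, 9866 of 18193 were above 0. Of 29 synaptic vesicle proteins and Rab3 effectors, 21 were above 0 and none passed, with a median of 0.16. Of the 11 with an unadjusted p under 0.05 (37.9%, against 10.6% of all genes), 8 were higher and 3 lower. The highest value was 0.55, of Syngr1 (limma adjusted p = 0.195), named after it was seen. The 2 values farthest from 0 were falls, in members that non-neuronal cells also express widely. Sypl, a synaptophysin relative, read 7.63, 7.36 and 7.97 with the plasmid, against 8.39, 8.33 and 8.45 with empty vector (log2 fold change -0.74, limma adjusted p = 0.125, with 1 of its 7 probe sets above 0). Syngr2, a synaptogyrin relative, read 7.31, 7.18 and 7.41 with the plasmid, against 7.95, 7.96 and 7.85 with empty vector (log2 fold change -0.62, limma adjusted p = 0.0639). In both, all plasmid values lay below all empty vector values. The Syngr2 probe set passed in 7 of 16 alternatives (adjusted p from 0.0323 to 0.400) and Sypl in 2. Of 26 genes of endosomal recycling, the route that Vamp3 serves, none passed, 17 were above 0, and the median was 0.06. Of the 6 with an unadjusted p under 0.05 (23.1%, against 10.6% of all genes), 5 were higher and 1 lower. The values farthest from 0 were -0.39 for Eea1, a tether of early endosomes (limma adjusted p = 0.729), and -0.36 for Scamp2 (limma adjusted p = 0.452). The Eea1 groups overlapped, and its value was -0.64 without plasmid replicate 3 and -0.24 without plasmid replicate 2. The highest values were 0.35 for Scamp5 (limma adjusted p = 0.276) and 0.34 for Rab4b (limma adjusted p = 0.236), both named after their values were seen. Tfrc, the transferrin receptor that Vamp3 vesicles carry, was picked after its value was seen, and had -0.04 (limma adjusted p = 0.983).

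None of 12 catecholaminergic and neuronal markers passed in limma. All 6 with an unadjusted p under 0.05 were higher (50%, against 10.6% of all genes in either direction). The 12 markers had a mean log2 signal per array of 8.80 to 8.89 with the plasmid and 8.55 to 8.63 with empty vector. That mean did not overlap between groups and moved in the same direction as Vamp2. Its part in the Vamp2 result was not tested. The 7 glial markers averaged 4.68 to 4.96 per array with the plasmid and 4.72 to 4.84 with empty vector, and those groups overlapped. So did the 8 blood and endothelial markers, with 4.37 to 4.67 and 4.40 to 4.55, and the 9 fibroblast and epithelial markers, with 4.69 to 4.87 and 4.67 to 4.92. None of the markers in these 3 lists passed, and 1, Krt8, had an unadjusted p under 0.05 and is named for that alone.

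The genes whose signal followed Vamp3 most closely over the 6 arrays, among 643 with a range of at least 1 log2 unit, were Hadhb, Plp2, Cmtm6 and Ccdc86. Their Pearson correlations with 1437708_x_at were 0.998, 0.997, 0.997 and 0.992, given as a description. Both groups enter these correlations, so they mostly restate that each gene was lower with the plasmid, with log2 fold changes of -0.998, -1.31, -0.95 and -1.22. For Vamp2 1420834_at, among 6317 genes with a range of at least 0.5, they were Ostm1, Cnih2, Klhl18 and Kdm4a, with correlations of 0.993, 0.988, 0.985 and 0.981. All 4 had higher means with the plasmid, by 0.38 to 0.47, and none of the 4 passed.

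**Figure D5:**
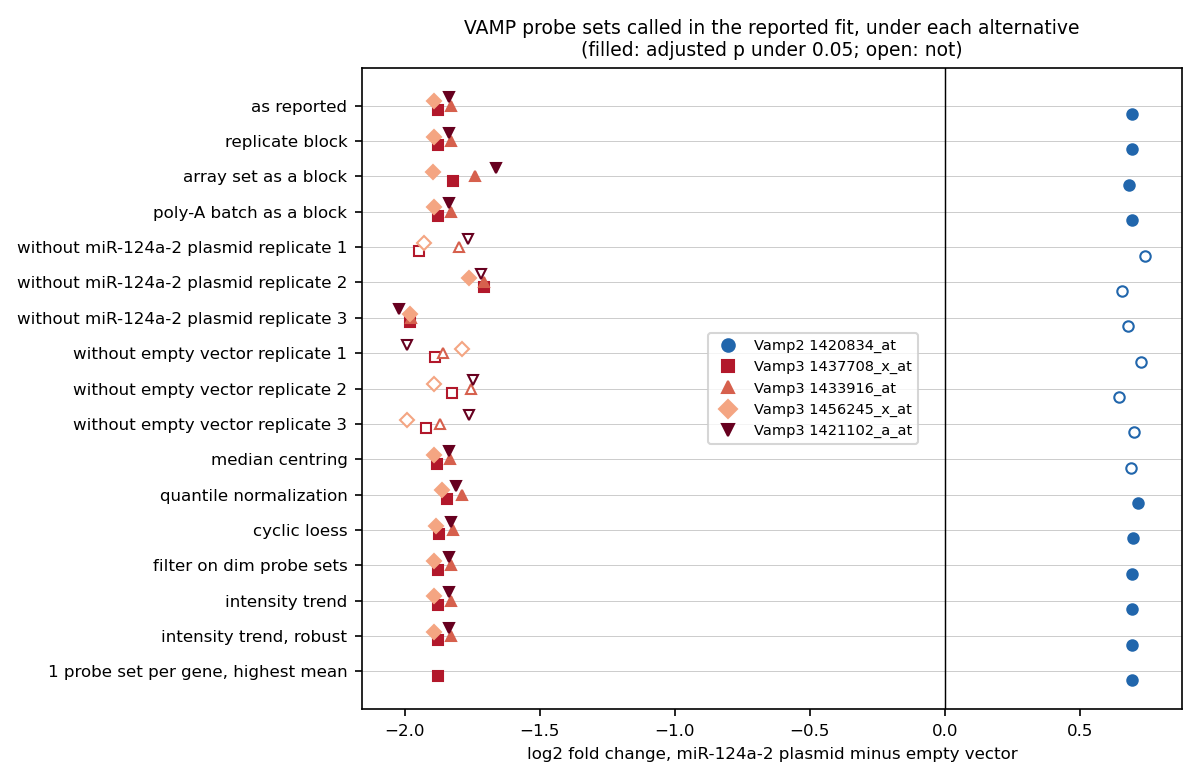
Log2 fold change (horizontal axis) of the 5 VAMP probe sets that passed, as reported and under each other setting that reads single probe sets (vertical axis), so the mean of probe sets is not drawn; filled symbols had an adjusted p under 0.05 and open symbols did not. Over these settings the Vamp3 values lie between -2.02 and -1.66 and those of Vamp2 between 0.65 and 0.74, while the calls open up in most fits that leave out an array.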

How the data were processed

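The deposited values are log2 signals, 1 per probe set and array, made by the authors with RMA per the submitters' processing notes; no version is given. The table held 45101 probe sets and no missing value. Nothing was renormalized, and 64 control probe sets were left out. Gene symbols came from the 2016 platform annotation (34945 probe sets with 1 gene, 932 with several, 9160 not listed). The test was limma 3.58.1 in R 4.3.3 (lmFit then eBayes, two-sided, without a block), Benjamini-Hochberg adjusted over 45037 probe sets. The number of arrays limits precision.

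Members and lists were chosen with earlier results of these data known. From each SNARE list, up to 3 called genes per direction were named, or, where none was called, the 2 with the largest change; for likeness, the 4 highest correlations. Of 157 listed genes 152 were matched. The array sets and poly-A levels were each divided at the largest gap between arrays. Alternatives were these 2 divisions or the replicate number as blocks, omission of single arrays, 3 normalizations, a filter on dim probe sets, an intensity trend and 2 rules for probe sets per gene.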

Additional observations from a re-analysis of the deposited data

How the results depend on the processing

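Over all probe sets, 94 were called lower and 27 higher as reported. Lower and higher calls numbered 498 and 175 with the replicate number as a block, 312 and 198 with the array set and 246 and 94 with the poly-A level as a block. They numbered 27 and 12 with median centring, 206 and 62 with quantile normalization, 192 and 52 with cyclic loess, 170 and 48 with an intensity trend and 179 and 50 with a robust trend. Leaving out single arrays gave 0 to 327 lower and 0 to 29 higher calls; each such fit has 1 array fewer, and why some arrays matter more was not tested.

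Of the VAMP probe sets, 4 were called lower and 1 higher as reported. The lower count was 1 with either rule that gives each gene a single value, as Vamp3 then counts once, and 0 to 4 when single arrays were left out. The higher count was 2 with the replicate block or the poly-A block, which added Vamp2 1420833_at, and 0 with median centring, with the mean of probe sets and whenever any single array was left out. The other settings left both counts at 4 and 1. In the SNARE lists, where none passed as reported, 2 genes were lower and 2 higher with the replicate block (Sypl, Syngr2, Napb, Syt1), 2 and 3 with the array set block (Snap23, Syngr2, Napb, Stxbp5, Syt4), and 1 and 1 with the poly-A block and with quantile normalization. Syngr2 alone was lower (1) with cyclic loess and with both rules for 1 value per gene, and Syt1 alone was higher (1) with either trend. Leaving out single arrays gave 0 to 2 lower and 0 higher. Syt1 and Syt4 are named for these calls, after they were seen.

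Replicate numbers were shared by the groups, but only 2 of the 3 same-number pairs deviated together (correlations 0.58, 0.03 and 0.56). The labels state no pairing and these correlations do not settle it, so the numbers were not taken to pair the arrays. Pairs with different numbers had correlations from -0.60 to 0.34, and whether same-number arrays shared a batch was not tested. With the replicate block, the shift of Vamp3 minus Vamp2 was again -2.57. That block cannot move it, as each number holds as many plasmid as empty vector arrays. Leaving out single arrays gave -2.69 to -2.36. Among VAMP probe sets, signs turned for these 4, none of which passed in any setting run. Vamp1 1421862_a_at had -0.071 with the array set block and -0.18 to 0.17 without single arrays. Vamp7 1426269_at had 0.027 with that block and -0.168 to 0.042 without single arrays, Vamp7 1452007_at had -0.11 to 0.20, and Vamp4 had -0.20 in the mean of its probe sets. Probe sets near the negative controls, 1433693_x_at, 1422896_at and 1449993_at, limit what can be read from them, and 3 arrays a group limit the rest.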
